A study of Homo sapiens with 78 samples.

Results

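The 51 genes described here encode the machinery of DNA replication and the enzymes that make its nucleotide precursors. They were taken from a fixed list, out of 62913 genes and unassigned transcripts in the deposited tables, and the estimated counts and TPM values of all their Ensembl transcripts were summed in each well. The series holds single FACS-sorted cells of 2 human cancer cell lines without any treatment, A375 (melanoma) and Jurkat (a clonal T cell leukaemia line), each prepared with 2 stranded total RNA kits from Takara, Pico v2 (#634413) and the SMART-Seq Stranded Kit (#634444). For each kit 18 Jurkat and 21 A375 wells were deposited, and wells with at least 200000 estimated counts were used, which left 18 and 18 Jurkat wells and 17 and 16 A375 wells.

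The cell line went together with several handling steps, and their parts cannot be told apart. A375 cells were grown in DMEM, labelled with an antibody against CD47 and sorted into PBS. Jurkat cells were grown in RPMI-1640, labelled with an antibody against CD81 and sorted into lysis solution. The labels give no separate cultures, so each line with each kit counts as 1 sample: spreads below are over wells, and no p-value is given between groups. Used wells held 231540 to 2567265 estimated counts. The 9 T cell markers summed to 1077 to 3439 CPM (estimated counts scaled to the same total in every well) in every Jurkat well and to at most 40.4 CPM in A375 wells. The 11 melanoma markers summed to a mean of 851 and 1084 CPM in A375 wells, mainly from SOX10, CSPG4 and AXL, with PMEL, MLANA, TYR and DCT at a mean of at most 2.69 CPM, and to at most 51.2 CPM in Jurkat wells. In 3 of the used A375 wells under 50% of the counts fell on protein coding genes (4.84% and 10.5% with #634413, 44.4% with #634444), against 67.1% to 76.9% in Jurkat wells. The summed share of the 51 genes and its rho with the histone and mitosis shares are given with and without these wells. Other A375 values, such as means of single genes and detection, include them unless stated.

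Replication starts when the MCM2 to MCM7 helicase is loaded at origins by ORC, CDC6 and CDT1 in G1, a step called licensing that geminin (GMNN) blocks after S phase begins. CDC45 and the GINS complex then activate the helicase, primase and the replicative polymerases copy the strands on the PCNA clamp, and FEN1 and LIG1 join Okazaki fragments. Ribonucleotide reductase (RRM1, RRM2), thymidylate synthase (TYMS) and thymidine kinase (TK1) supply deoxynucleotides. Many of these genes are transcribed by E2F factors around the G1 to S transition, and replication-dependent histone transcripts accumulate during S phase itself.

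The E2F link can be read in promoter sequence, so the windows of some members are shown first. RefSeq windows (GRCh38.p14) of 250 bases upstream of a start were found for 44 of the 51 genes and were searched on both strands for 4 E2F-type octamers, TTTCCCGC, TTTGGCGC, TTTCGCGC and TTTGCCGC. These octamers overlap one another in some promoters, and overlapping matches were joined. At least 1 match stood in 15 of the 44 genes (34.1%), against 928 of all 27305 genes with a window (3.4%). The CCAAT pentamer stood in 27 of 44 members (61.4%) and in 10102 of the 27305 genes. By role, E2F-type matches were found for 5 of 10 licensing genes with a window (CDT1, GMNN, MCM3, MCM6, MCM7), 2 of 7 polymerase and primase genes (POLA2, POLE), 2 of 7 clamp, loader and single-strand binding genes (PCNA, RFC3) and for GINS2, LIG1, TYMS, UHRF1, DTL and E2F1. A match is a run of letters, and binding was not measured. Of the windows with a match in the last 100 bases before the start, the 5 that overlap no annotated exon are printed 5′ to 3′ on the gene's strand, ending at the base before the start, with E2F-type matches in capitals.
MCM6, chr2:135876444-135876543, minus strand: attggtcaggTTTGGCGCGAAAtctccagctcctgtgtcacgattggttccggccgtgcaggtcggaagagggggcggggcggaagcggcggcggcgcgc
CDT1, chr16:88803689-88803788, plus strand: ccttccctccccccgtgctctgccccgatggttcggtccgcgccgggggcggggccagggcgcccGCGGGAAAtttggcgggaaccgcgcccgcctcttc
GMNN, chr6:24775313-24775412, plus strand: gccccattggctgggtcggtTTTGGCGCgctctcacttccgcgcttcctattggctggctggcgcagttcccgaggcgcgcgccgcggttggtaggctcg
GINS2, chr16:85688955-85689054, minus strand: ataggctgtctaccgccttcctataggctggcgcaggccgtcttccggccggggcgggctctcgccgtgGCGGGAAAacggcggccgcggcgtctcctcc
E2F1, chr20:33686386-33686485, minus strand: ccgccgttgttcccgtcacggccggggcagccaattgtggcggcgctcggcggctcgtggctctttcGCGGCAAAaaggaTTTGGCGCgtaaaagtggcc

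MCM6 carried 2 opposed octamers joined into 1 stretch from 90 to 79 bases before the start, GMNN a match from 80 to 73 bases before it, and E2F1, itself an E2F factor, 2 matches within 33 bases of its start. TYMS and UHRF1, among the genes that differed most between the cell lines, and PCNA, the clamp, are printed as 30 bases around the match, because annotated exons reach into their windows.
TYMS, chr18:657603-657632, plus strand: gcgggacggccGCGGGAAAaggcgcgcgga
UHRF1, chr19:4909471-4909500, plus strand: caaatgccgagttttcGCGGGAAAaaaatc
PCNA, chr20:5126663-5126692, minus strand: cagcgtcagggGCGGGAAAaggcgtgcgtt

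The first comparison asked how much of the RNA of each cell came from these genes. Together the 51 genes took 0.879% ± 0.318 of the counts in Jurkat #634413 wells (SD, n = 18) and 0.615% ± 0.240 in Jurkat #634444 wells (n = 18). In A375 the share was 0.223% ± 0.177 with #634413 (n = 17) and 0.177% ± 0.115 with #634444 (n = 16). The Jurkat mean was therefore 3.94 and 3.48 times the A375 mean, a log2 difference of -1.98 and -1.80 for A375 minus Jurkat. Single Jurkat wells ranged from 0.205% to 1.33% with #634413 (median 0.9997%) and from 0.135% to 1.08% with #634444 (median 0.589%), and A375 wells from 0.00389% to 0.625% (median 0.180%) and from 0.0564% to 0.447% (median 0.145%). The groups overlapped: 3 Jurkat wells of each kit lay at or below the highest A375 well, yet Jurkat was the higher well in 94.8% and 95.8% of all A375-Jurkat pairs. Without the 3 A375 wells low in protein coding counts the A375 share was 0.249% ± 0.172 and 0.184% ± 0.115 (n = 15 and 15). Pooled over wells, 164275 and 84665 counts fell on the genes in Jurkat (0.908%, exact 95% binomial interval 0.903% to 0.912%, and 0.588%, 0.584% to 0.592%), against 47583 and 28412 in A375 (0.267%, 0.265% to 0.270%, and 0.193%, 0.191% to 0.195%). These intervals cover counting error only, since amplified reads are not independent molecules, and are far narrower than the spread between wells.

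**Figure D1:**
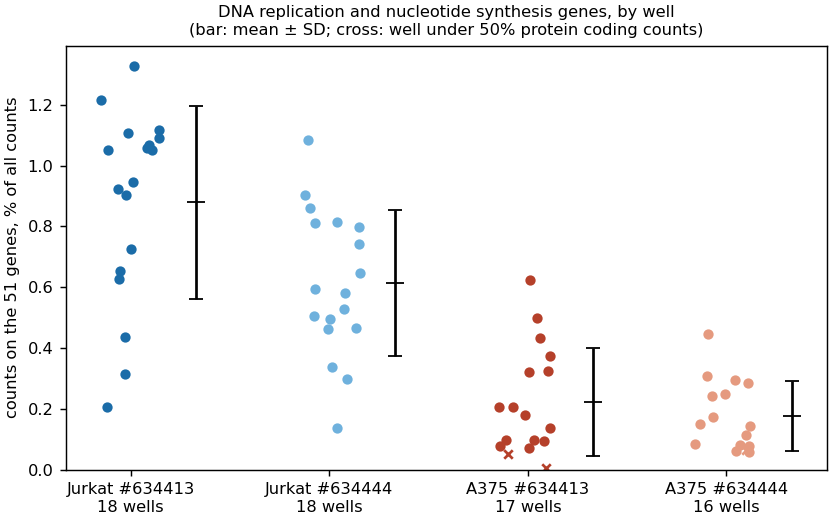
Percent of all estimated counts on the 51 replication genes in each used well (points; crosses are wells with under 50% protein coding counts), by cell line and kit, with the mean ± SD beside each column. Jurkat wells reach 1.33% and A375 wells 0.625%, and the lowest Jurkat wells lie among the A375 wells.

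Taken gene by gene, 35 of the 51 genes were at least 2-fold lower in A375 with both kits and 0 were at least 2-fold higher, on the log2(mean CPM + 1) scale. All 51 passed the low-value filter of 5 CPM, the mean of the 4 group means. Over all 13047 genes that passed it, 16.1% were lower in A375 by this rule and 18.8% higher, so a share of 35 in 51 stands above the background for lower genes. The median difference of the 51 genes was -1.85 with #634413 and -1.79 with #634444, against -0.07 and 0.00 over all genes. CCNE1 was the exception in sign, at 0.22 and 0.62. For 0 of the 51 genes did the wells of the lines fail to overlap, with either kit; over all genes this was so for 0.636% with #634413 and 3.0% with #634444. Jurkat was the higher well in over 90% of A375-Jurkat pairs for 11 and 9 of the 51 genes. It was the higher well in under 50% of pairs for 6 and 3 genes. These pair counts were not made over all genes, so no background stands beside them. Pairs tied at 0 were not counted as higher for Jurkat. Of the 35 lower genes, PRIM2 and TK1 with #634413 and CCNE2 with #634444 were under 50%, so these calls rest on the means. Many of their pairs can be ties: PRIM2 with #634413 was detected in 10 of 18 Jurkat and 10 of 17 A375 wells. A share under 50% therefore does not mean that A375 was the higher well in most pairs. With 1 sample a group all these values are differences between the libraries and carry no test.

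**Figure D2:**
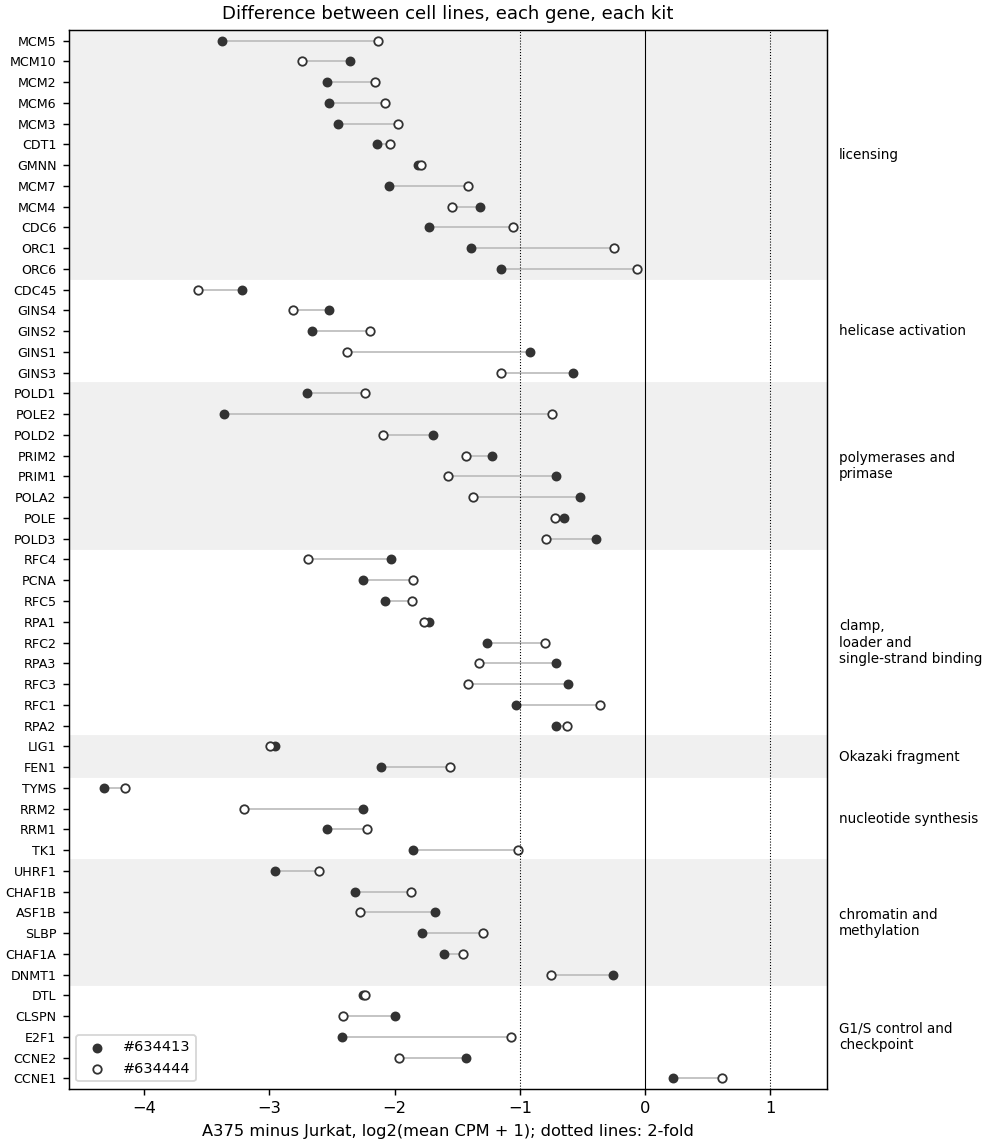
A375 minus Jurkat difference in log2(mean CPM + 1) for each of the 51 genes, with #634413 (filled) and #634444 (open), grouped by role; dotted lines mark a 2-fold difference. TYMS lies farthest to the left at -4.32 and -4.15, and CCNE1 alone lies to the right of 0 with both kits.

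The largest difference of a single gene fell among the nucleotide synthesis genes. All 4 were at least 2-fold lower in A375, with a median log2 difference of -2.39 and -2.71. With #634413 the medians of the Okazaki fragment genes (-2.532) and the helicase activation genes (-2.525) were larger in size. TYMS (ENSG00000176890, chr18:657653-673578, GRCh38) makes thymidylate and had the largest difference of the 51 genes. It was detected in all 36 Jurkat wells, at 71.7 to 1467 CPM (median 579) with #634413 and 74.2 to 1020 CPM (median 430) with #634444. In A375 it ranged from 0 to 228 CPM (median 12.7) and from 0 to 102 CPM (median 6.003), with at least 1 count in 9 of 17 and 13 of 16 wells. The highest A375 wells reached into the lower Jurkat range, but Jurkat was the higher well in 99.35% and 98.96% of pairs, and the difference of the means exceeded the SD over Jurkat wells with both kits (428 and 245 CPM). RRM2, the S phase subunit of ribonucleotide reductase, varied widely over wells. In Jurkat it ran from 0 to 752 CPM (median 380) and from 0 to 702 CPM (median 129), and in A375 from 0 to 572 CPM (median 0) and from 0 to 203 CPM (median 4.04). Its partner RRM1 was steadier in Jurkat, at 265 ± 87.2 CPM (n = 18) and 225 ± 125 CPM (n = 18), against 44.9 ± 57.99 (n = 17) and 47.5 ± 37.8 (n = 16) in A375. TK1 was low in both lines, with counts in 7 and 15 of 18 Jurkat wells and in 5 of 17 and 5 of 16 A375 wells, and mean levels of 18.4 and 20.98 CPM in Jurkat and 4.37 and 9.87 CPM in A375.

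The group called licensing genes here holds MCM2 to MCM7, MCM10, ORC1, ORC6, CDC6, CDT1 and also GMNN, which blocks licensing. Of these 12 genes 10 were lower in A375, ORC1 and ORC6 being the others. MCM7 and MCM3, subunits of the helicase, led the CPM scale in Jurkat with #634413 among these genes, at 590 ± 290 and 566 ± 298 CPM (n = 18), and had 142 ± 133 and 103 ± 102 CPM in A375 (n = 17). MCM5, another subunit, differed by -3.38 and -2.13 on the log2 scale: 377 ± 252 and 184 ± 168 CPM in Jurkat against 35.4 ± 38.6 and 41.4 ± 56.3 CPM in A375. ORC6, a subunit of the origin recognition complex, had 131 ± 107 CPM in Jurkat and 58.3 ± 53.1 CPM in A375 with #634413, but 70.1 ± 31.5 against 67.0 ± 35.6 CPM with #634444. Its log2 differences of -1.15 and -0.06 thus differed between the kits. CDT1, which loads the helicase, and its inhibitor GMNN were both lower in A375, by -2.14 and -2.04 and by -1.81 and -1.79.

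Among the 5 helicase activation genes 3 were called lower with both kits. CDC45 had the second largest difference of all members by the mean of both kits (-3.22 and -3.57), although MCM5 and POLE2 exceeded it with #634413. It was found in 16 and 17 of 18 Jurkat wells at a median of 78.4 and 69.3 CPM, and in 7 of 17 and 4 of 16 A375 wells, at a median of 0 with both kits. GINS4 differed by -2.52 and -2.82 and GINS2 by -2.66 and -2.20, whereas GINS3 did so by only -0.57 and -1.15.

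The polymerases and primase had the smallest median difference with #634413 (-0.97, and -1.40 with #634444). Of 8 genes 3 passed the rule: POLD1 (-2.70 and -2.24), the catalytic subunit of polymerase delta, its partner POLD2 (-1.70 and -2.09), and PRIM2 (-1.22 and -1.43). For PRIM2 with #634413 the median was 6.52 CPM in Jurkat and 2.54 CPM in A375. Jurkat was the higher well in under 50% of pairs, with pairs tied at 0 not counted as higher. POLE, the catalytic subunit of the leading strand polymerase, was present in nearly every used well and close in level, at 158 ± 137 and 128 ± 66.4 CPM in Jurkat and 101 ± 77.1 and 77.6 ± 72.8 CPM in A375. Its differences of -0.65 and -0.72, like those of POLD3 (-0.39 and -0.79), were smaller than the SD over Jurkat wells. POLE2 was too sparse to place. In A375 #634413 it rested on 9 counts in 1 well (exact 95% Poisson interval 4.12 to 17.1), and its differences were -3.36 and -0.75.

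For the clamp, its loader and the single-strand binding proteins, 4 of 9 genes passed. All 9 were below 0 with both kits. PCNA, the clamp, had 308 ± 156 and 156 ± 83.4 CPM in Jurkat and 63.9 ± 65.7 and 42.5 ± 41.2 CPM in A375, a difference of -2.25 and -1.85. RFC4, RFC5 and RPA1 were the others. RFC1, the large subunit of the clamp loader, reached 149 ± 85.1 CPM in Jurkat and 72.2 ± 59.9 CPM in A375 with #634413 (-1.03), but 116 ± 70.6 and 89.98 ± 56.3 CPM with #634444 (-0.36). RPA2 gave -0.71 and -0.62. Both Okazaki fragment genes were lower: LIG1 by -2.95 and -2.99, from 181 ± 99.3 and 184 ± 125 CPM in Jurkat to 22.6 ± 35.004 and 22.2 ± 25.7 CPM in A375, and FEN1 by -2.11 and -1.56.

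Of the 6 chromatin and methylation genes 5 were lower in A375, led by UHRF1, which directs maintenance methylation to new DNA. UHRF1 ranged from 42.8 to 1039 CPM (median 509) and from 66.4 to 453 CPM (median 250) in Jurkat, and from 0 to 255 CPM (median 15.04) and from 0 to 141 CPM (median 28.9) in A375. SLBP, which binds the end of histone transcripts, had 219 ± 122 and 135 ± 79.6 CPM in Jurkat and 63.04 ± 49.3 and 54.5 ± 40.8 CPM in A375 (-1.78 and -1.30). DNMT1, the methyltransferase that UHRF1 recruits, was the exception. It was the only gene of the list detected in every used well of all 4 groups. At most 3 genes could be, since 1 A375 #634413 well low in protein coding counts had only 3 of them. DNMT1 had 339 ± 220 and 373 ± 158 CPM in Jurkat against 284 ± 184 and 221 ± 117 CPM in A375. Its log2 differences were -0.25 and -0.75, and its differences of the mean CPM were smaller than the SD over Jurkat wells. In the G1/S control and checkpoint group, DTL (-2.25 and -2.24), CLSPN (-2.00 and -2.41), E2F1 and CCNE2 were lower. CCNE1, encoding cyclin E1, was low in both lines, at a mean of 12.3 and 6.25 CPM in Jurkat and 14.5 and 10.1 CPM in A375, and was found in 6 and 3 of 18 Jurkat wells and in 9 of 17 and 7 of 16 A375 wells.

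A separate list of 35 further replication genes moved the same way to a lesser degree, with 18 at least 2-fold lower in A375, 0 higher, and medians of -1.23 and -1.39. Among these, DCK, another supplier of nucleotides, differed by -4.49 and -2.56 and the factor E2F2 by -4.03 and -4.45, while ORC4 (0.39 and 1.27) and POLD4 (0.86 and 0.67) were higher in A375 without passing the rule. Of 20 mitosis genes, 11 were lower and 0 higher, with medians of -2.32 and -1.25. A lower level per cell and fewer cells in S phase or late G1 cannot be told apart from these means.

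Levels of different genes were compared in TPM, which is scaled by transcript length. Averaged over the 4 groups, MCM4 (186 TPM), DNMT1 (180 TPM) and TYMS (150 TPM) were highest and CCNE1, E2F1, ORC1 and POLE2 were at 5.55 to 6.70 TPM. The order depended on the scale for MCM4. In CPM it had 225 ± 169 in Jurkat #634413, under MCM2 at 519 ± 292, but 301 ± 196 TPM against 216 ± 164 TPM, and 73.5% of its Jurkat counts and 74.7% of its A375 counts were assigned to transcript models with a retained intron. MCM7 had 50.5% and 60.6% of its counts on such models, TYMS 15.9% and 14.15%, and UHRF1, PCNA and E2F1 none. Over all 51 genes, retained intron models took 14.002% ± 6.23 and 11.99% ± 4.48 of the counts in Jurkat wells (n = 18 and 18) and 16.3% ± 4.76 and 16.9% ± 5.59 in A375 wells (n = 15 and 15, without the wells low in protein coding counts). Annotated pseudogenes named after members held 1 count in all. PRIM1, POLD1, CHAF1B and FEN1 overlap another protein coding gene on the same strand, so their counts carry that uncertainty.

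Detection followed level. A Jurkat well had counts for 44.5 ± 5.64 and 46.4 ± 3.71 of the 51 genes (n = 18 and 18) and an A375 well for 32.8 ± 14.4 and 37.9 ± 8.63 (n = 17 and 16). Thinned to 200000 counts a well, the numbers were 42.3 ± 5.65 and 44.8 ± 4.85 in Jurkat, 30.6 ± 14.5 and 34.2 ± 9.89 in A375. Over all genes the order was the other way round, at 7556 ± 677 and 9541 ± 663 genes in thinned Jurkat wells and 9668 ± 2806 and 12053 ± 1191 in thinned A375 wells. In Jurkat, 18 and 25 of the 51 genes had a count in every well, and in A375 1 and 10. The A375 #634413 number could not exceed 3, because 1 well low in protein coding counts had only 3 of the genes. The share of all genes with a count in every well was not computed. A gene without a count in a well may still have been expressed: at these depths the 3 counts allowed by a zero amount to between 0.000117% and 0.0013% of a well's counts.

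The kits were compared within each cell line. The summed level was lower with #634444 by 0.52 on the log2 scale in Jurkat and by 0.34 in A375, less than the SD over wells of the log2 level in #634413 wells (0.73 and 1.72). The A375 SD includes the wells low in protein coding counts, with a member share down to 0.00389%, and was not computed without them. By gene, 39 of the 51 had a lower mean with #634444 in Jurkat and 39 in A375, where 46.7% and 40.5% of all genes did, with medians of -0.41 and -0.30 against 0.01 and 0.10 over all genes. None of the 51 differed 2-fold in the same direction in both lines, where 0.621% of all genes were lower and 1.21% higher with #634444. In Jurkat all 12 licensing genes were lower with #634444, with a median of -0.74, such as MCM7 (-1.02) and CDC6 (-0.95), another helicase loader, while the 8 polymerase and primase genes had a median of 0.08. The mean mitosis gene share of Jurkat wells was 0.401% ± 0.412 with #634413 and 0.415% ± 0.311 with #634444 (n = 18 and 18). The medians lay farther apart, at 0.231% and 0.376%. It exceeded 0.8% in 3 #634413 wells and 4 #634444 wells. Whether the mix of cells had a part in the kit difference was not tested.

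The next question was whether the genes followed the histone share, the percent of counts on 73 protein coding histone genes, which marks S phase. Histone share ranged from 0.0218% to 4.44% in Jurkat wells (median 0.389%) and from 0 to 0.675% in A375 wells (median 0.102%). In Jurkat the wells fell into 2 sets with each kit, 12 wells at up to 0.632% and 6 wells from 1.44% upwards, with no well between. Over all wells of a group, Spearman's rho of the summed member share with the histone share was 0.32 in Jurkat #634413 (n = 18), 0.44 in Jurkat #634444 (n = 18), 0.58 in A375 #634413 (n = 17) and 0.17 in A375 #634444 (n = 16). These values describe wells that share 1 denominator and were processed side by side, and they carry no p-value. In Jurkat they mostly set the 2 sets against each other: within the 12 lower wells rho was 0.04 and 0.03, and within the 6 higher wells -0.09 and 0.94. The histone-rich wells were narrow in their member share, at 0.904% to 1.33% and 0.582% to 0.905%, whereas the lower wells spread from 0.205% to 1.22% and from 0.135% to 1.08% and enclosed or nearly enclosed that range. A high share of replication genes was therefore common to wells with and without abundant histone transcripts, and the lowest shares were found only in histone-poor wells. In A375 rho was 0.39 (n = 15) and 0.32 (n = 15) without the 3 wells low in protein coding counts. Among A375 #634413 wells the member share also went with the total count (rho 0.61, or 0.44 without those wells), and among #634444 wells with the protein coding share (rho 0.79). Their part in the relation was not tested.

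**Figure D3:**
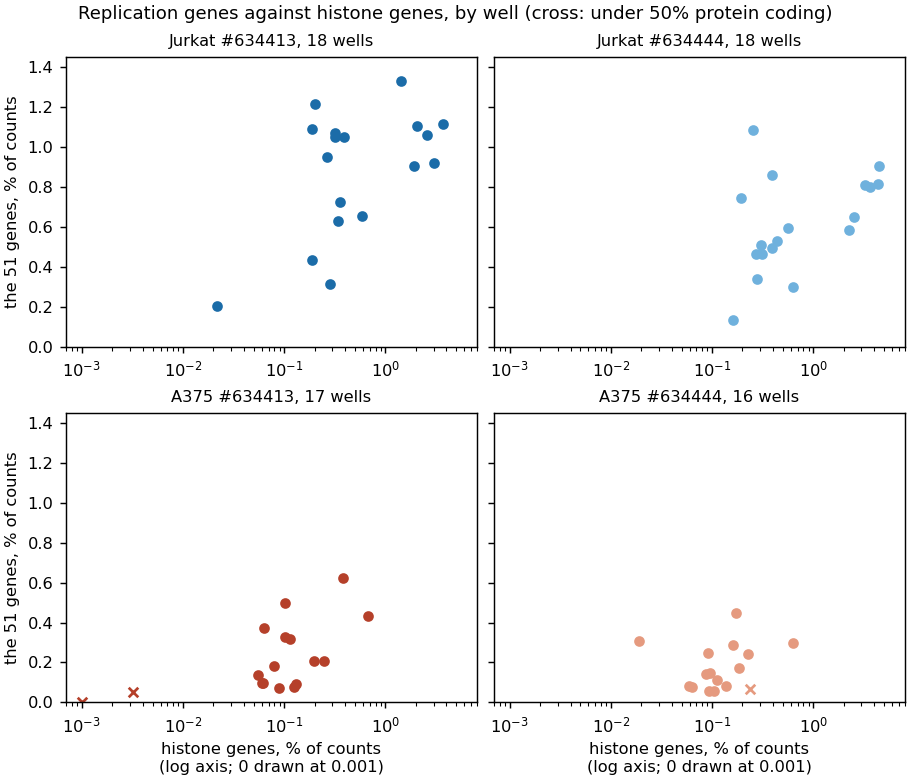
Percent of counts on the 51 genes against percent of counts on histone genes in each well, on a log horizontal axis, by cell line and kit; crosses are wells with under 50% protein coding counts. Jurkat wells form a histone-rich set from 1.44% upwards, whose member shares lie within or near the range of the other wells.

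Single genes differed in how they followed the histone share. Of 49 members with at least 10 CPM in Jurkat with each kit, 3 reached a rho of 0.4 with both kits and 0 reached -0.4. The background over 8858 genes was 1.2% and 0.463%, so 3 of 49 lies above it by a small count. The median rho of the members was 0.15 and 0.30 against 0.01 and -0.03 over all genes, and 37 of the 49 were above 0 with both kits, where 26.5% of all genes were. The 3 genes were CLSPN (0.55 and 0.56), a checkpoint mediator at replication forks, TYMS (0.46 and 0.59) and GMNN (0.48 and 0.46). RRM2 (0.34 and 0.63) and FEN1 (0.49 and 0.39) came next. In the 6 histone-rich wells RRM2 lay at 364 to 752 CPM and 224 to 702 CPM, and in the 12 other wells at 0 to 499 and 0 to 376 CPM. At the other end were GINS2 (-0.20 and -0.20), ORC6 (-0.20 and -0.18), DTL (0.10 and -0.33), UHRF1 (0.01 and -0.18) and RPA2 (-0.24 and 0.25). UHRF1, for example, ran from 137 to 742 CPM and from 110 to 342 CPM in histone-rich wells, inside the 42.8 to 1039 CPM and 66.4 to 453 CPM of the other wells. In A375, 4 of 40 members passed with both kits, POLD1 (0.67 and 0.46), POLD3 (0.66 and 0.42), LIG1 (0.50 and 0.44) and CLSPN (0.46 and 0.50), against a background of 1.08% of 9427 genes, and 0 reached -0.4 (background 0.0212%). The median rho of the members in A375 was 0.45 and 0.19 against 0.28 and -0.05 over all genes, and 34 of the 40 were above 0 with both kits, where 36.9% of all genes were. Without the wells low in protein coding counts 2 in place of 4 members passed in A375, POLD3 (0.56 and 0.67) and FEN1 (0.50 and 0.55), while CLSPN (0.33 and 0.50) did not. With these wells, CLSPN was the 1 member that passed in both lines.

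**Figure D4:**
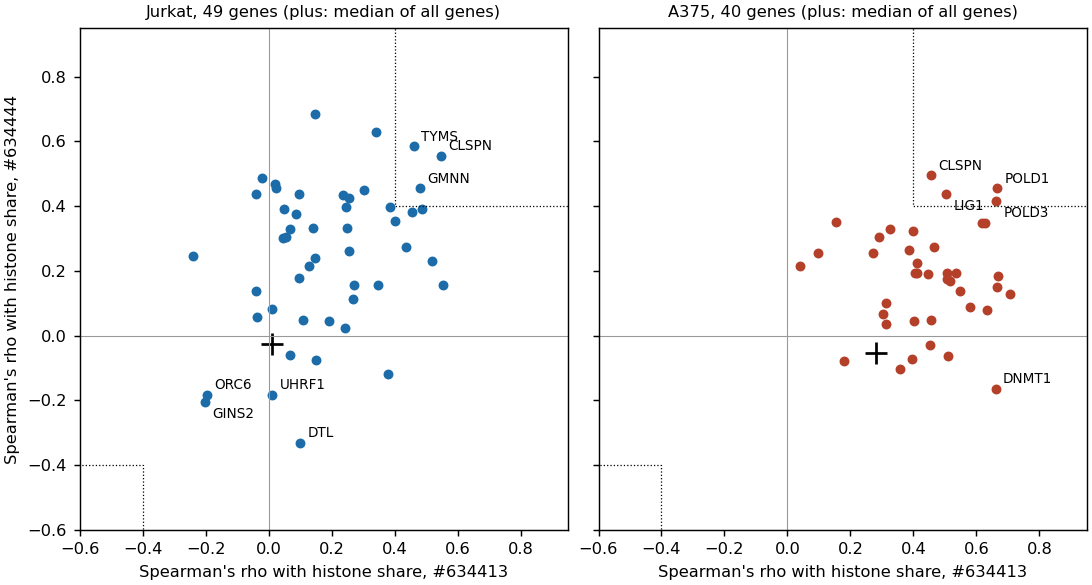
Spearman's rho of each gene with the histone share over wells, #634413 on the horizontal and #634444 on the vertical axis, for 49 genes in Jurkat and 40 in A375; dotted corners mark 0.4 with both kits and the plus sign the median of all genes. Jurkat members lie mostly above and to the right of 0, with GINS2, ORC6 and DTL below 0, and in A375 the members' medians are 0.45 and 0.19 where those of all genes are 0.28 and -0.05.

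Role groups separated further when Jurkat wells were set against the share of 20 mitosis genes such as CCNB1, PLK1 and TOP2A, which peak in G2 and M; this relation was examined after the data had been seen. The 3 Jurkat #634413 wells with the highest mitosis share, 1.51%, 1.24% and 0.83%, had the 3 lowest sums of licensing genes of that kit, 414, 484 and 1049 CPM, where the other 15 wells had 2644 to 4985 CPM. The 4 Jurkat #634444 wells with the highest mitosis share, from 0.80% to 1.05%, had 480.0, 950.0, 1480.2 and 1116 CPM of licensing genes, among a range of 449 to 4380 CPM. Nucleotide synthesis genes had 497 to 756 CPM in those 3 wells and 645 to 883 CPM in those 4, where the ranges over all wells of the kits were 464 to 2377 and 102 to 1915 CPM. The ratio of licensing to nucleotide synthesis genes fell with the mitosis share (rho -0.84 and -0.78, n = 18 and 18) over a log2 range of -0.86 to 2.51 and of -0.61 to 2.22. Against the histone share it gave -0.02 and -0.47. The summed share of all 51 genes was also low in these wells: it was 0.205%, 0.313% and 0.435% in those 3 wells, the 3 lowest of the kit, where the next well had 0.627%, and 0.2995% to 0.507% in those 4, among a range of 0.135% to 1.08%. Over all Jurkat wells its rho with the mitosis share was -0.29 and -0.09. Gene by gene, 1 of 49 members had a rho of -0.4 or less with the mitosis share with both kits (background 0.384%), MCM6 at -0.55 and -0.51, and 0 had 0.4 or more (background 1.56%). Other helicase subunits lay near, with MCM2 at -0.52 and -0.35, MCM3 at -0.36 and -0.44 and MCM5 at -0.59 and -0.34, while RRM2 had -0.08 and 0.51.

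**Figure D5:**
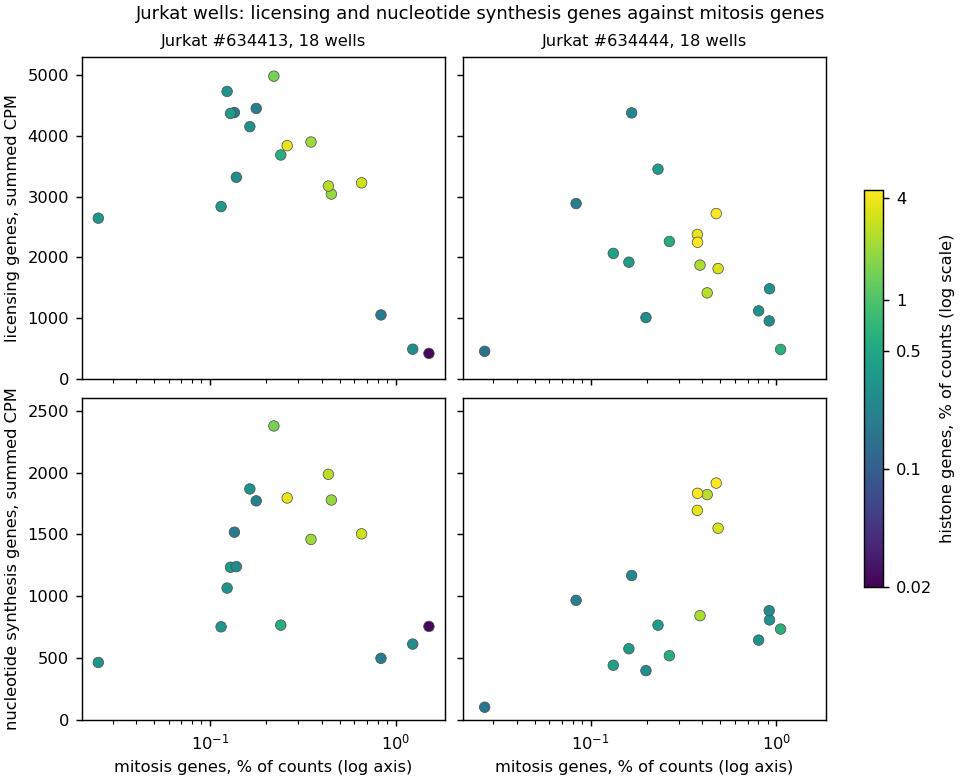
Summed CPM of 12 licensing genes (top) and 4 nucleotide synthesis genes (bottom) against the percent of counts on mitosis genes (log axis) in each Jurkat well, coloured by the percent of counts on histone genes. Licensing sums are at 414 to 1480.2 CPM in the 3 and 4 wells with the highest mitosis share, and nucleotide synthesis sums are 497 to 883 CPM in the same wells.

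In A375 the summed share of the 51 genes was higher in wells with a higher mitosis share: rho was 0.73 with #634413 (n = 17) and 0.66 with #634444 (n = 16), and 0.74 and 0.80 (n = 15 and 15) without the wells low in protein coding counts. Whether the lines differ in this was not tested. The A375 wells with the highest member share, 0.625% and 0.447%, were A375 #634413 replicate 2 and A375 #634444 replicate 20, with 951 and 313 CPM of nucleotide synthesis genes where the medians of their groups were 53.8 and 62.7 CPM. Some A375 wells had no counts on the G1/S control and checkpoint genes, which summed to 0 CPM in 5 wells with #634413, 2 of them low in protein coding counts, and in 3 wells with #634444, none of them so. Over pairs of members the median rho between wells was 0.51 and 0.50 in A375, against 0.20 and 0.03 over pairs of a sample of all genes. In Jurkat it was 0.20 and 0.26, against 0.01 and 0.01. The A375 values include the wells low in protein coding counts, and whether the lines differ in this median rho was not tested. The licensing factor CDT1 and its inhibitor GMNN, whose proteins alternate in the cycle, were not opposed at the transcript level (rho 0.24 and 0.03 in Jurkat, 0.43 and 0.26 in A375).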

How the data were processed

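Single A375 and Jurkat cells were sorted into strips, frozen and made into stranded total RNA libraries with either kit. The authors mapped the reads with kallisto 0.43.1 in stranded mode to Ensembl transcripts and ERCC spike-in sequences, and deposited for each well the estimated counts and the TPM values of 200471 targets. STAR 2.5.3 and hg38 are also named in the submitters' processing notes. These counts are estimates that need not be whole, and reads shared by transcripts were divided between them before deposit.

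Transcripts were joined to genes by the GENCODE v44 annotation (195850 of 200206 Ensembl transcripts matched), and values were summed per gene and well. CPM and shares use all estimated counts without ERCC. The 9 A375 wells under 200000 counts were left out. Group values are means over wells with equal weight. A gene was called at a 2-fold difference of mean CPM (pseudocount 1) in the same direction with both kits, among genes at 5 CPM or more over the group means. Spearman's rho was called at 0.4 with both kits, among genes at 10 CPM or more. A gene was detected at 1 count or more. Since the labels name no cultures, no test between groups was run, and p-values are not given. No 2 wells held identical values (0 of 3003 pairs). Promoter windows came from RefSeq on GRCh38.p14.

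The genes, the lists and the calling rules were chosen with earlier results of these data known. Named genes were, per role group, the 2 with the highest TPM, the 6 with the largest and the 6 with the smallest difference between lines, and the 5 with the highest and the 5 with the lowest rho with the histone share in Jurkat; other members are named where a count or a role calls for it, after their values were seen. Alternatives changed the scaling (including size factors from edgeR 4.0.16 and DESeq2 1.42.0), the pseudocount, the filter, the minimum total and the wells. Python 3.11.15, pandas 2.3.3, scipy 1.17.1 and R 4.3.3 were used, and the scripts were tested on simulated data.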

Additional observations from a re-analysis of the deposited data

Results flagged for a closer look

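Counts on the replication genes were also looked for in the 9 A375 wells that were left out for low totals. In 3 of them the summed counts lay above the 3 counts that a zero allows. A375 #634413 replicate 13 had 38.53 counts on 4 of the genes, of 153648 in all, with 26 on CHAF1B. A375 #634413 replicate 15 had 41.78 counts on 7 genes, of 156660 in all, with 16 on DNMT1. A375 #634444 replicate 1 had 5.0 counts on 2 genes, of 80958 in all, with 4 on CHAF1A. Protein coding genes took 6.9%, 20.22% and 5.991% of the counts of these wells, and the other 6 wells held 0 to 2 counts on the genes.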

How the results depend on the processing

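Apart from leaving out single wells, 164 alternative values stayed within the limits set for them and 28 moved. The number of genes at least 2-fold lower in A375 was 30 to 36 over all scalings, filters, pseudocounts and choices of wells, and 0 were higher in each. Scaling to protein coding counts without histones shifted the median of all genes with #634413 from -0.07 to 0.16 and left 34 genes lower. As a percent of TPM the Jurkat share was 0.4127 and 0.2746, and as a percent of protein coding counts without histones 1.235 and 0.8742. For rho with the histone share, in the order Jurkat #634413, Jurkat #634444, A375 #634413 and A375 #634444, leaving out each well in turn gave 0.1961 to 0.4608, 0.3407 to 0.6593, 0.4941 to 0.6647 and 0.06429 to 0.3857. It was 0.3505 in A375 #634413 per protein coding count, 0.65 in Jurkat #634444 and 0.4615 in A375 #634413 in wells of at least 500000 counts, 0.3857 and 0.3214 in A375 without the wells low in protein coding counts, and 0.3176 in Jurkat #634444 and 0.4143 in A375 #634413 without the 2 wells farthest from the median. Pearson's r of log2 shares was 0.6163 in Jurkat #634413 and 0.8251 in A375 #634413. Within the Jurkat sets, a split chosen after seeing the data, rho was 0.04196 below and -0.08571 above the gap with #634413, and 0.03497 and 0.9429 with #634444. The number of members past 0.4 with both kits was 5 in Jurkat per protein coding count, 5 in Jurkat and 1 in A375 in wells of at least 500000 counts, 2 in A375 without the wells low in protein coding counts, and 6 in Jurkat and 0 in A375 by Pearson's r. With the mitosis share, in the same order, the correlation was -0.4191 to -0.1618, -0.2892 to 0.04412, 0.6706 to 0.7882 and 0.5821 to 0.8 with each well left out; without Jurkat #634444 replicate 16 its sign changed, and without A375 #634444 replicate 10, the only well of that kit low in protein coding counts, it was 0.8. For the ratio of licensing to nucleotide synthesis genes it was -0.9093 to -0.8064, -0.8162 to -0.7426, -0.5882 to -0.4294 and -0.6321 to -0.375, and in TPM -0.7028, -0.6305, -0.2892 and -0.2235. The cause of these shifts was not tested. No paired analysis was possible because no test was run and replicate numbers follow the order of the samples.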
